A study of Mus musculus with 162 samples.

Results

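Myc, Mycn and Mycl encode the MYC transcription factors, and Gadd45a, Gadd45b and Gadd45g encode small stress-response proteins. These 6 genes, of 53686 in the count table, are described here in 9 mouse organs during a fast of up to 22 h. They were chosen by measured values of these same libraries: Myc, Gadd45g and Gadd45b were named in the study's own account of fasted liver, and the levels of all 6 genes across organs and fasting times were known when the set was drawn up. Their levels are therefore given as a description, with no test, and tests were made only on other genes of their pathways.

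The study sequenced polyadenylated RNA of whole organs from adult male C57BL/6J mice, 8 to 9 weeks old and group-housed since birth. The mice either ate ad libitum (0 h) or had no food for 2, 8, 12, 18 or 22 h, with 3 mice at each of the 6 times, and all were killed at the same clock time, shortly after dark onset. Each of the 18 mice gave 9 organs: olfactory bulb (OB), telencephalon with diencephalon (BRN), cerebellum (CBL), mesencephalon with pons and myelencephalon (BST), stomach (STM), liver (LIV), interscapular brown fat (iBAT), perigonadal white fat (pgWAT) and posterior-subcutaneous white fat (psWAT). A library is named here by its organ, fasting time and replicate number.

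MYC proteins pair with MAX, bind the E-box CACGTG and raise transcription of genes for ribosome assembly, translation and nucleotide synthesis, and Myc itself is an early response gene in liver that is preparing to divide. The GADD45 proteins bind the kinase MAP3K4, the CDK1 and cyclin B complex and the replication clamp PCNA, and have been linked to active DNA demethylation through TDG and the TET enzymes. Gadd45a is a classic p53 target, Gadd45b answers to NF-kB and TGF-beta, and Gadd45g answers to cytokines and neuronal activity; in liver, GADD45 genes have been tied to regeneration and to the fasting response.

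Total counts per library ran from 130701 to 27801717. The 5 libraries far below their organ in total were left out: BRN 8 h replicate 3, BRN 18 h replicate 1, STM 12 h replicate 3, iBAT 22 h replicate 1 and psWAT 22 h replicate 2. The retained libraries held 3045845 to 27801717 counts. In the shallowest of them a count of 0 allows up to 0.985 CPM (counts scaled to library size), taking 3 counts as the floor, which covers counting error only. Levels are normalized CPM, scaled by trimmed mean of M values (TMM) within an organ. Of the 6 genes, Mycn had too few counts in iBAT to be fitted there, while Myc, Mycl, Gadd45a, Gadd45b and Gadd45g passed the filter on low counts in 9 of 9 organs.

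Marker genes matched the organ labels, with a mixture in both white fats and markers of other tissues in some libraries of other organs. The summed normalized CPM of 6 liver markers was 76465 to 101069 in LIV, that of 6 stomach markers 11753 to 108108 in STM, and that of 4 brown fat markers 4283 to 12226 in iBAT. Each of the 4 brain regions held all 5 of its own markers. The 6 adipocyte markers summed to 3435 to 46783 in pgWAT and to 467 to 32527 in psWAT. In psWAT the 6 lymphocyte markers also summed to 186 to 2646, against 2.91 to 11.2 in LIV. The skeletal muscle markers reached 10612 in iBAT, with a median sum of 999.6, and 676 in LIV, with a median of 24.5. Stomach markers reached 247 in iBAT, with a median of 1.48. Pancreatic acinar markers reached 270 in STM, with a median of 2.20, and 88.7 in BRN, with a median of 19.4.

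A few libraries stood apart. All retained libraries but 2 were most like the mean of their own organ, over 11679 genes. The library psWAT 8 h replicate 1 was nearer to pgWAT (r = 0.939) than to psWAT (r = 0.863), and psWAT 12 h replicate 3 was nearer to CBL (r = 0.846) than to psWAT (r = 0.816), with all 5 cerebellar markers present at a sum of 3680. The 5 epididymis markers, with a median sum of 8.92 in pgWAT, reached 17552 in pgWAT 18 h replicate 3 and 21016 in pgWAT 22 h replicate 2. In bulk tissue, fewer cells of a type and less RNA per cell cannot be told apart.

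Myc, the founding member of its family, was highest in posterior-subcutaneous fat and stomach and lowest in the brain regions over all fasting times. Its mean over all fasting times was 42.99 ± 16.3 normalized CPM (SD, n = 17) in psWAT, 23.5 ± 5.74 (n = 17) in STM and 14.7 ± 16.5 (n = 18) in LIV. Means were lower in pgWAT (11.1), iBAT (6.05), OB (3.83), BRN (2.98), BST (2.68) and CBL (1.42), in that order. Neighbours in this order overlapped within their SDs except BST and CBL. At 0 h alone LIV, at 4.10, came below pgWAT (11.5) and iBAT (4.23). The 3 psWAT libraries lowest in Myc, at 14.4, 14.9 and 14.3, were also the 3 lowest in the lymphocyte sum, at 186, 301 and 778; the part of lymphocytes in the psWAT level was not tested. Without psWAT 8 h replicate 1 and 12 h replicate 3 the psWAT mean of Myc was 46.8 ± 13.2 (n = 15), still the highest of the organs.

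Mycn, the MYC gene of neural progenitors, stood out in the olfactory bulb, a region that goes on receiving new neurons in adult mice. Its mean was 21.5 ± 2.86 normalized CPM (n = 18) in OB, and the lowest OB library, at 13.8, lay above the highest BRN library, at 8.17. Means followed in BRN (4.33 ± 2.05, n = 16), CBL (3.25), BST (1.80), LIV (1.48), pgWAT (1.21), psWAT (0.980), STM (0.779) and iBAT (0.288). Apart from OB and BRN, the neighbours CBL and BST did not overlap within their SDs, while all others did. In BRN 18 h replicate 2, the shallowest retained library, Mycn had 0 counts.

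Mycl, a MYC gene expressed in neurons and several epithelia, spread most widely within perigonadal fat. Its mean was 32.5 ± 26.1 normalized CPM (n = 18) in pgWAT, 25.3 ± 1.89 (n = 18) in OB and 17.2 ± 8.19 (n = 17) in psWAT. It then ran through BRN (15.2), iBAT (12.2), BST (12.1), CBL (9.67), STM (8.12) and LIV (4.48), and every pair of neighbours overlapped within the SDs. The OB libraries lay close together, from 21.99 to 28.05, whereas pgWAT libraries ran from 4.36 to 86.5. At 0 h OB came first with a mean of 23.2, and pgWAT was at 11.5.

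Gadd45a, the p53 target of its family, differed gradually among organs. Its mean was 15.5 ± 8.53 normalized CPM (n = 18) in pgWAT and 3.70 ± 2.45 (n = 17) in iBAT, the ends of the order. Between them came psWAT (13.7), BST (10.9), CBL (9.09), STM (8.51), OB (6.02), LIV (5.70) and BRN (5.00), and every pair of neighbours overlapped within the SDs. That order is over all fasting times. At 0 h the mean was 22.3 in pgWAT and 7.28 in iBAT, with BRN lowest at 5.78. The highest pgWAT value, 37.7, was in 22 h replicate 2, one of the libraries with epididymis markers, and without it and 18 h replicate 3 the pgWAT mean was 14.1 ± 6.90 (n = 16).

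Gadd45b, the member tied to NF-kB, was concentrated in posterior-subcutaneous fat. Its mean was 78.0 ± 39.1 normalized CPM (n = 17) in psWAT and 17.0 ± 5.37 (n = 17) in STM, a gap larger than the SDs although single libraries overlapped. After STM came CBL (13.3), OB (11.9), BST (10.2), BRN (10.1), pgWAT (8.45), iBAT (5.28) and LIV (2.67), with every further pair of neighbours overlapping. Without psWAT 8 h replicate 1 and 12 h replicate 3 the psWAT mean was 82.99 ± 38.8 (n = 15). The liver was thus its lowest organ.

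Gadd45g, the cytokine-responsive member, had its highest mean over all fasting times in liver and also varied most there. Its mean was 67.5 ± 71.1 normalized CPM (n = 18) in LIV, 53.9 ± 37.7 (n = 17) in STM and 49.8 ± 44.04 (n = 17) in iBAT. Means followed in pgWAT (33.4), psWAT (28.5), CBL (21.7), BRN (20.3), OB (19.8) and BST (15.2), and every pair of neighbours overlapped within the SDs. The place of LIV rests on fasted mice: at 0 h its mean was 15.95, below psWAT (35.2), pgWAT (31.6), iBAT (31.2), STM (30.3) and CBL (20.03).

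With 1 set of scaling factors over all organs, chosen after seeing the data, the highest organ of each of the 6 genes was the same. Some places lower in the order moved. For Mycl iBAT took the third place with 15.9 and psWAT the fifth with 13.1. For Gadd45a STM took the third place with 10.1, and for Gadd45g iBAT and STM were level at 64.3. Means in LIV were higher on this scale, with Gadd45g at 103.7 and Gadd45a at 8.77.

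**Figure D1:**
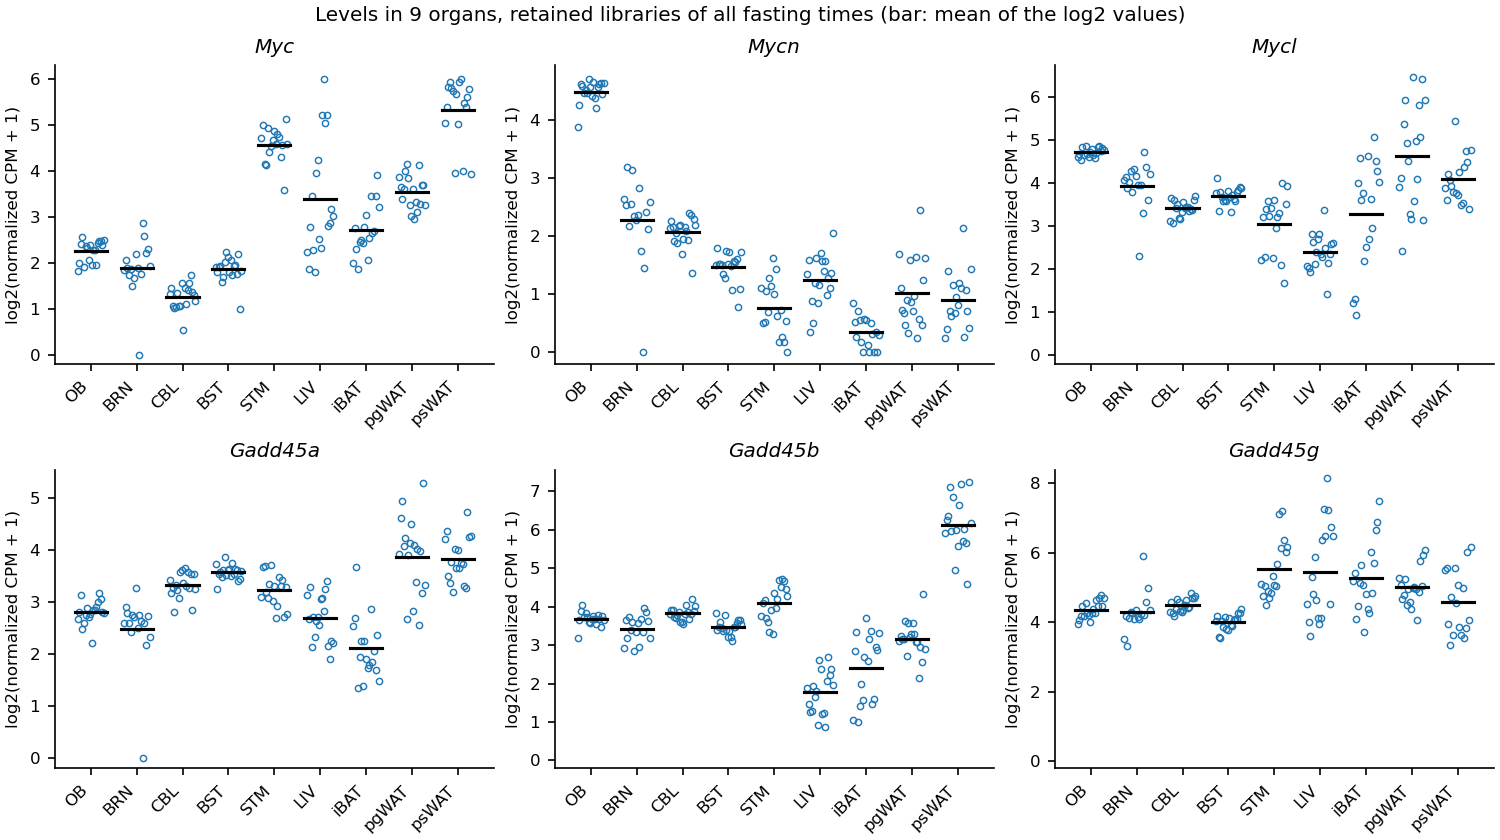
Level of each of the 6 genes in every retained library of the 9 organs, as log2 of normalized CPM plus 1, with 1 point per library of any fasting time and a bar at the mean of the log2 values. Mycn stands highest in OB, Gadd45b in psWAT, and Gadd45g spreads widest in LIV and iBAT.

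Per kilobase of exon, which allows levels of different genes to be compared, Gadd45g came first of the 6 genes in 8 organs. It reached 57.6 normalized CPM per kb in LIV, 45.9 in STM and 42.5 in iBAT. In psWAT Gadd45b came first at 49.1 normalized CPM per kb, ahead of Gadd45g at 24.3 and Myc at 15.8. Among the MYC genes alone, Myc led in psWAT, STM (8.64) and LIV (5.41), Mycn led narrowly over Mycl in OB (6.53 against 6.25), and Mycl led in the other 5 organs. These are means over all fasting times. At 0 h Myc led in iBAT (1.56 against 0.305 for Mycl) and pgWAT (4.24 against 2.85), and Mycl led in OB (5.75 against 5.61 for Mycn).

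The question of the fasting comparison was how these genes stand late in the fast, at 18 and 22 h, against 0 h. A gene was counted as above when every late library exceeded every 0 h library of the organ, and as below in the opposite case. The share of all tested genes that met the same rule is given beside each count, and nothing is read from the members' counts since the levels had chosen them.

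In LIV, Myc and Gadd45g were above, 2 of 6 members, beside 7.61% of 14023 genes, and 0 were below, beside 6.69%. In STM, Gadd45b and Gadd45g were above, 2 of 6, beside 6.04% of 16281 genes, and 0 were below, beside 6.88%. In OB, Gadd45g and Mycl were above, 2 of 6, beside 3.64% of 16742 genes, and 0 were below, beside 2.68%. Gadd45g is in all 3 of these counts and in the next, of BRN, which is not read further since the organs share mice. In BRN, Gadd45g alone was above, 1 of 6, beside 11.1% of 16749 genes, and 0 were below, beside 11.7%. In iBAT, Mycl was above and Gadd45a below, 1 each of 5 fitted members, beside 4.72% and 6.2% of 14529 genes.

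Groups overlapped for all 6 members in the remaining organs. In CBL the counts were 0 above and 0 below, beside 1.93% and 2.23% of 15976 genes, and in BST 0 and 0, beside 1.53% and 1.69% of 16784 genes. In pgWAT they were 0 and 0, beside 5.24% and 5.25% of 16412 genes, and in psWAT 0 and 0, beside 0.951% and 0.694% of 16714 genes. These comparisons share their mice across organs, and all use the same 0 h libraries within an organ.

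Gadd45g had a fitted late level above 0 h in 9 of 9 organs, although in psWAT the difference was 0.02 in log2 and turned to -0.40 with a block for replicate number and to -0.06 without the low-count filter. In psWAT it was also -0.26 at 18 h alone, and -0.71 at the lowest when each library was left out in turn. The psWAT mean of Gadd45g was 34.98 late against 35.19 at 0 h. Mycl was also higher in 9 of 9 organs, by 0.00 in BST, where it turned to -0.11 at 18 h alone, and by 0.13 in BRN, where it turned to -0.02 with every library kept. When each library was left out in turn, the lowest difference of Mycl was -0.19 in BST and -0.36 in BRN. Myc was higher in 5 of 9, Mycn in 4 of 8, Gadd45a in 4 of 9 and Gadd45b in 5 of 9. Small differences of the other members turned sign in many organs, at 18 or 22 h alone among other fits. DESeq2 and relative log expression scaling turned no sign. Over all fits, those without 1 library included, the level was higher in every fit in 8 organs for Gadd45g, 7 for Mycl, 4 for Myc, 1 for Mycn, 1 for Gadd45b and 0 for Gadd45a. It was lower in every fit in 5 organs for Gadd45a, 3 for Mycn and 0 for the other members. The sign turned in at least 1 fit in 8 organs for Gadd45b, 5 for Myc, 4 for Mycn, 4 for Gadd45a, 2 for Mycl and 1 for Gadd45g. These tallies describe the chosen members only, and nothing is read from them. The organs share their mice, and the share of all genes with such signs was not counted.

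**Figure D2:**
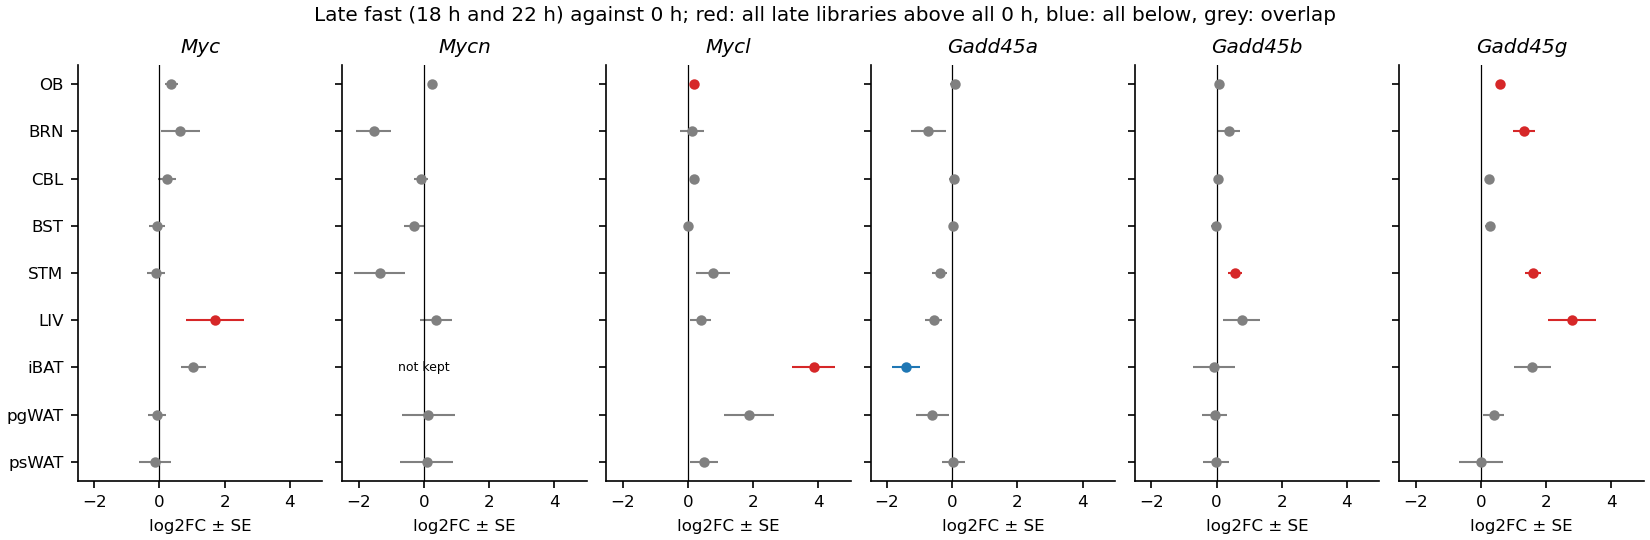
Difference of the late fast (18 and 22 h) from 0 h for each gene and organ, as log2 fold change with its standard error from the edgeR fit. Red marks organs in which every late library exceeded every 0 h library, blue the opposite, grey overlap; Gadd45g is red in OB, BRN, STM and LIV.

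In liver, Gadd45g differed most from 0 h at 18 h. The 0 h livers held 21.8, 14.9 and 11.1 normalized CPM, the 18 h livers 87.7, 284 and 150.4, and the 22 h livers 21.99, 106.1 and 89.1. Every late liver lay above every 0 h liver, though 22 h replicate 1, at 21.99 against 21.80, barely did. The late mean was 123.2 ± 88.8 (n = 6) against 16.0 ± 5.41 (n = 3), a log2 fold change of 2.81 (SE 0.74). Leaving out each library in turn gave 2.54 to 3.10.

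The liver level of Gadd45g did not climb steadily with the hours. At 2 h the livers held 38.3, 27.1 and 57.99 normalized CPM, all above 0 h, at 8 h 24.03, 16.5 and 14.4, and at 12 h 16.6, 81.2 and 152.3. So 12 of 15 fasted livers exceeded every 0 h liver, the 8 h livers lay near the 0 h range, and 12 h mice differed widely from each other. The 8 and 12 h livers together differed from 0 h by 1.28 (SE 0.70) in log2, and the late livers from these by 1.52 (SE 0.52), with overlap in both comparisons. The 3 liver comparisons share libraries with each other.

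Sequencing lane was tied to time in liver: the 0 and 2 h livers and 8 h replicates 1 and 2 were in lane 1, and 8 h replicate 3 and all later livers in lane 2. The lane 2 liver of 8 h held 14.4 normalized CPM of Gadd45g, within the 0 h range. With lane in the fit, the late difference of Gadd45g was 3.29 (SE 1.49). That fit takes its lane term from the 8 h livers only, 2 in lane 1 and 1 in lane 2.

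In stomach, Gadd45g was high at both late times and, in the retained libraries, near the 0 h level before. The 0 h stomachs held 33.4, 25.9 and 31.8 normalized CPM, the 18 h stomachs 136.9, 69.5 and 145.7, and the 22 h stomachs 81.6, 63.9 and 70.4. Every late stomach lay above the other retained ones, since those of 2 to 12 h ran from 21.5 to 49.8. The 12 h stomach left out for its low total, replicate 3, held 114.2 CPM without scaling. The late mean was 94.7 ± 36.7 (n = 6) against 30.3 ± 3.96 (n = 3), a log2 fold change of 1.60 (SE 0.24). It was 1.95 at 18 h alone and 1.25 at 22 h alone.

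Lane divided the stomachs in the same way, with 0 and 2 h and 8 h replicates 1 and 2 in lane 5 and the rest in lane 6. The lane 6 stomach of 8 h, at 32.9 normalized CPM, lay in the 0 h range of Gadd45g, and the difference with lane in the fit was 1.61 (SE 0.47). The sum of 12 proliferation markers, with Mki67 the most abundant, was 334, 243 and 179 in the 0 h stomachs and 92.6 to 164.6 in the late ones, and that of the stomach markers 38393 to 108108 against 11753 to 53611. Their part in the Gadd45g level was not tested.

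In the olfactory bulb the difference of Gadd45g was small and tight. The 0 h bulbs held 14.5, 15.8 and 17.2 normalized CPM, the 18 h bulbs 23.9, 21.1 and 24.7, and the 22 h bulbs 26.5, 21.01 and 24.9. All late bulbs exceeded all 0 h bulbs, and the 2 h bulbs, at 21.3, 17.0 and 22.4, came close to them. The bulbs differed by 0.58 in log2 (SE 0.11), and 0.84 (SE 0.20) with lane, divided as in liver, in the fit. The lane 4 bulb of 8 h held 14.9.

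In the forebrain samples Gadd45g was also higher late, with 1 library far above the rest. The 0 h samples held 10.3, 17.0 and 8.90 normalized CPM, the retained 18 h samples 59.5 and 17.3, and the 22 h samples 22.98, 30.7 and 19.3. The groups were separate, but only by 17.3 against 17.0. The log2 fold change was 1.34 (SE 0.33), and 0.78 (SE 0.26) without 18 h replicate 2, the shallowest library. All 0 h samples were of 1 library series and all 18 and 22 h samples of another, and with series in the fit the difference was 1.40 (SE 0.51). The red blood cell markers summed to 45.7 to 109.4 in the 0 h samples and to 140.1 to 495 in the late ones, with Hbb-bs the most abundant, and their part was not tested.

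In brown fat Gadd45g was highest at 22 h, yet the groups overlapped. The 0 h samples held 35.7, 42.1 and 15.9 normalized CPM, the 18 h samples 27.8, 50.99 and 99.6, and the retained 22 h samples 117.7 and 179. So 4 of 5 late samples exceeded every 0 h sample. The log2 fold change was 1.58 (SE 0.56), made up of 0.92 at 18 h and 2.25 at 22 h.

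The other organs showed little difference in Gadd45g. Late and 0 h samples differed in log2 by 0.26 (SE 0.12) in CBL, 0.27 (SE 0.13) in BST, 0.39 (SE 0.32) in pgWAT and 0.02 (SE 0.67) in psWAT. In pgWAT the highest values were 67.2, 59.9 and 53.4, the last 2 of them in the libraries with epididymis markers, and without 18 h replicate 3 the difference was 0.11 (SE 0.27). In psWAT the late samples fell apart, from 10.8 to 70.9, around 0 h values of 14.4 to 46.3.

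**Figure D3:**
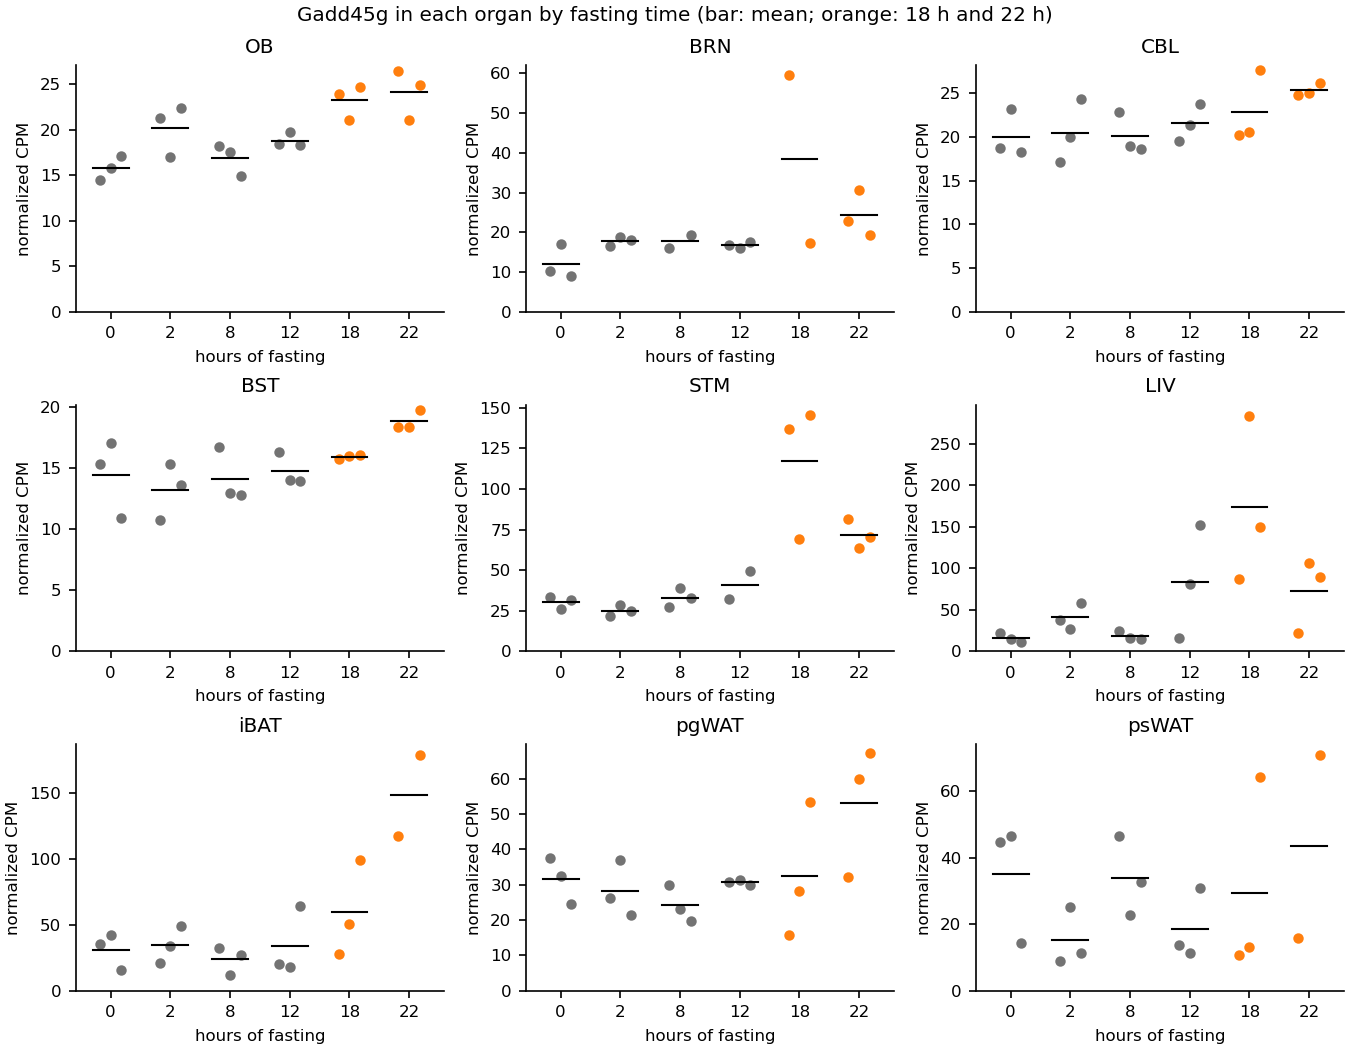
Normalized CPM of Gadd45g in each retained library against hours of fasting in the 9 organs, with 18 and 22 h in orange and a bar at the mean of each time. LIV reaches 284 and STM 145.7 at 18 h, while CBL and BST stay between 10.7 and 27.7 at every time.

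Gadd45b, its close relative, stood higher late in the stomach alone by the rule of separate groups. The 0 h stomachs held 12.5, 16.0 and 17.1 normalized CPM, the 18 h stomachs 25.04, 21.9 and 25.3, and the 22 h stomachs 24.6, 20.9 and 18.3. Late stomachs thus differed by 0.57 in log2 (SE 0.22). It turned to -0.19 (SE 0.39) with lane in the fit, since the lane 6 stomach of 8 h held 19.5 and the lane 5 stomachs of 8 h 14.2 and 8.80.

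In liver Gadd45b was scarce at every time. The 0 h livers held 2.69, 1.77 and 1.41 normalized CPM and the late livers 0.824 to 5.43, with 5 of 6 above all 0 h livers and 1 below. The log2 fold change was 0.78 (SE 0.57), and -0.83 (SE 0.94) with lane in the fit. In psWAT, where the gene was most abundant, the 0 h samples held 59.01, 75.1 and 81.8 and the late ones 23.3 to 151.4. The psWAT difference was -0.66 at 18 h and 0.63 at 22 h in log2.

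Gadd45a was lower in most retained samples of fasted brown fat. At 0 h the samples held 4.78, 5.40 and 11.7 normalized CPM, the 18 h samples 2.57, 3.17 and 2.23, and the retained 22 h samples 4.14 and 1.78. Of the 14 retained fasted samples, 13 lay below every 0 h sample, those of 2 h included, at 1.52, 2.84 and 3.74. The 22 h sample left out for its low total, replicate 1, held 7.41 CPM without scaling, above 4.07 and 4.82 and below 12.0 CPM in the 0 h samples. The late log2 fold change was -1.42 (SE 0.43), and -0.91 (SE 0.46) without 0 h replicate 3, the sample at 11.7.

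In liver Gadd45a was lower at 22 h but not at 18 h. The 0 h livers held 7.69, 5.32 and 8.72 normalized CPM, the 18 h livers 8.45, 9.59 and 3.43, and the 22 h livers 2.75, 3.75 and 3.58. All 22 h livers lay below the 0 h range, and the log2 difference was -0.03 at 18 h and -1.11 at 22 h. At 2 h the livers held 3.37, 5.49 and 4.02. In BRN, where 18 h replicate 2 had 0 counts, the late difference was -0.73 (SE 0.54), and -4.44 without 18 h replicate 3, which leaves the sample with 0 counts alone at 18 h. The other end of the range when each BRN library was left out in turn was -0.31. Library series divided 0 h from late BRN samples for this gene too.

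Myc, an early response gene of the liver, was high in some fasted livers and at the 0 h level in others. The 0 h livers held 3.72, 2.66 and 5.91 normalized CPM, the 8 h livers 14.5, 17.9 and 4.75, and the 12 h livers 4.00, 35.9 and 62.99. The 18 h livers held 31.9, 36.4 and 6.00, and the 22 h livers 6.34, 7.99 and 7.17. All 6 late livers lay above all 0 h livers, but 18 h replicate 3 and the 22 h livers, at 6.00 to 7.99, lay close to the highest of these. The 12 h mean was 34.3 ± 29.5 (n = 3), the highest of the 6 times, and that of 22 h 7.17 ± 0.825.

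The late livers averaged 16.0 ± 14.2 normalized CPM of Myc (n = 6) against 4.10 ± 1.66 (n = 3), a log2 fold change of 1.70 (SE 0.89). The 8 and 12 h livers averaged 23.4 ± 22.6, a difference of 2.33 (SE 0.89), with 4 of 6 above all 0 h livers. Late livers differed from these by -0.63 (SE 0.60), with full overlap. With lane in the fit the late difference was 3.47 (SE 1.68), while the lane 2 liver of 8 h, at 4.75, lay in the 0 h range. The 3 livers with the most Myc at 12 and 18 h did not order as for Gadd45g: 12 h replicate 3 led for Myc and 18 h replicate 2 for Gadd45g.

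**Figure D4:**
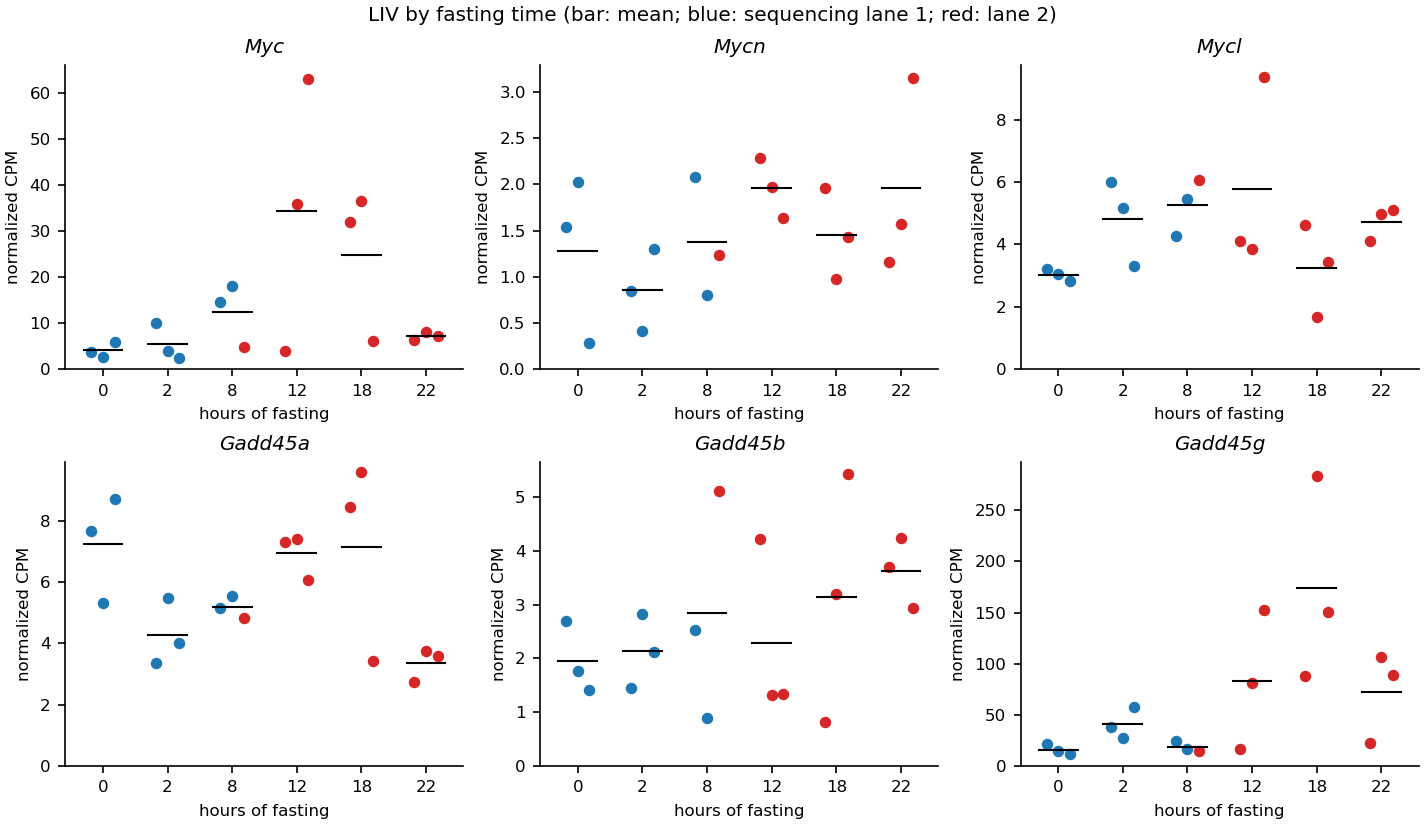
Normalized CPM of the 6 genes in each LIV library against hours of fasting, with lane 1 in blue and lane 2 in red. Myc spreads widely at 12 and 18 h and lies close together at 22 h, Gadd45g spreads widely from 12 h on, and the single lane 2 library of 8 h lies with the 0 h libraries for both.

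Outside the liver the late level of Myc overlapped that of 0 h in every organ. In iBAT the 0 h samples held 2.97, 5.77 and 3.96 normalized CPM and the late ones 5.28 to 14.0, with 3 of 5 above all 0 h samples and a log2 fold change of 1.03 (SE 0.38), the largest of these organs. In STM, the organ with the second highest level, the late difference was -0.11 (SE 0.28). In psWAT it was -0.13 (SE 0.49), and 0.19 without 22 h replicate 3, the late sample lowest in lymphocyte markers. Leaving out each psWAT library in turn gave -0.77 to 0.19. The smallest and largest differences elsewhere were -0.09 in BST and 0.64 in BRN.

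Mycl had the largest difference of any member, and it was present in brown fat from 2 h on. The 0 h samples of iBAT held 1.30, 1.48 and 0.913 normalized CPM, those of 2 h 15.1, 22.96 and 11.2, those of 18 h 6.70, 32.2 and 21.7, and the retained ones of 22 h 18.5 and 15.1. All 14 fasted samples lay above every 0 h sample, the lowest at 3.52 in 8 h replicate 2. The log2 fold change was 3.71 at 2 h, 2.43 at 8 h, 3.42 at 12 h, 3.99 at 18 h and 3.73 at 22 h, and 3.86 (SE 0.67) for the late fast. Leaving out each library in turn gave 3.61 to 4.08, and taking 0 and 2 h together as the control gave 2.01 (SE 0.47).

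In perigonadal fat Mycl was higher late too, but the groups overlapped. At 0 h these fats held 13.9, 16.2 and 4.36 normalized CPM and the late ones 7.82 to 83.7, with 4 of 6 above all 0 h samples. The 2 h samples held 40.1, 59.96 and 29.1. The late log2 fold change was 1.86 (SE 0.77), and 2.12 (SE 0.67) without 22 h replicate 2, the late sample lowest in Mycl and high in epididymis markers. Leaving out each library in turn gave 1.47 to 2.20, and 0 and 2 h together as the control gave 0.91 (SE 0.57). The 0 h samples of pgWAT were in lane 5 and the late ones in lane 6, and the part of lane was not tested there.

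In liver and olfactory bulb Mycl was somewhat higher in the fast. The 0 h livers held 3.21, 3.04 and 2.81 normalized CPM, and 14 of 15 fasted livers lay above them. All 6 livers of 8 and 12 h did, with a log2 fold change of 0.85 (SE 0.32). The late livers differed by 0.39 (SE 0.32), with 5 of 6 above all 0 h livers and 1 below, and by 0.13 at 18 h alone. In OB the late difference was 0.19 (SE 0.08), and 0.10 (SE 0.16) with lane in the fit.

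Mycn, low outside the brain, was lower late in BRN. At 0 h the BRN samples held 5.22, 4.80 and 8.17 normalized CPM, the retained 18 h samples 0 and 1.73, and the 22 h samples 4.33, 3.34 and 5.01. Of the 5 late samples, 4 lay below every 0 h sample. Library series divided 0 h from late samples here as for Gadd45g. The retained 18 h libraries held 3045845 and 4987342 counts in total, and the shallowest 0 h library 6149574. The log2 fold change was -1.54 (SE 0.55), -2.56 at 18 h alone and -0.52 at 22 h alone. It was -4.53 (SE 1.04) without 18 h replicate 3, which leaves the sample with 0 counts alone at 18 h, as for Gadd45a. In OB, its main organ, the difference was 0.27 (SE 0.13), with 0 h values of 13.8, 18.2 and 23.5, and 0.07 to 0.48 when each library was left out in turn. In STM it was -1.35 (SE 0.79), from -2.08 without 22 h replicate 2 to -0.73 without 0 h replicate 1.

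Genes that act with MYC and GADD45 proteins were tested in the same fits, in 6 gene lists. The lists were the MAX network of MYC partners and rivals, MYC cofactors and turnover factors, MYC targets, GADD45 partners, p53 targets and immediate early genes. A gene was called at a Benjamini-Hochberg adjusted p below 0.05 over all genes of the organ in edgeR's quasi-likelihood test.

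In liver a few listed genes were called late in the fast, in both directions. Of 107 listed genes tested, 7 rose and 3 fell, beside 728 and 756 of all genes (10.6% called). No filter on low counts gave 19 higher and 4 lower, and 0 and 2 h as control 14 and 4. Ier2, an immediate early gene, rose from 28.8 ± 3.39 to 49.2 ± 12.4 normalized CPM, a log2 fold change of 0.75 (adjusted p = 0.0020), higher in 6 of 6 livers. The apoptosis effector Bax, a p53 target, rose by 0.62 (adjusted p = 0.0034, 6 of 6). The glucose-sensing factor Mlxip, of the MAX network list, rose by 0.68 (adjusted p = 0.0068, 6 of 6), whereas its dimer partner Mlx fell by 0.36 (adjusted p = 0.042, 6 of 6).

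Among the 32 MYC targets tested in late liver, 2 rose and 1 fell, with a median log2 fold change of 0.09 beside 0.01 over all genes. The prohibitin gene Phb rose by 0.51 (adjusted p = 0.010) and the nucleolar Npm1 by 0.44 (adjusted p = 0.041), while the cap-binding factor Eif4e fell by 0.44 (adjusted p = 0.037). Of the other lists, 1 of 19 GADD45 partners rose, Tet3 by 0.45 (adjusted p = 0.030). Among p53 targets, Ccng1 fell by 0.56 (adjusted p = 0.012), and of the MAX network Mxd3 rose (adjusted p = 0.049, 5 of 6) from 0.226 to 1.09 normalized CPM, at the edge of detection. Of 13 MYC cofactors 0 were called in edgeR, with 5 at an unadjusted p below 0.05, and 0 in DESeq2.

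The liver calls rest on few mice. Ier2, Bax, Mlxip and Phb kept their call without any 1 library, but without 0 h replicate 2 only 4 of the 10 named genes did. With lane in the fit 0 of the listed genes were called, beside 21 of all genes.

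At 8 and 12 h the liver had 4 listed genes up and 4 down, beside 572 and 675 of all genes (8.89% called). Mlxipl, which encodes the carbohydrate sensor ChREBP, rose from 649 ± 53.2 to 925 ± 133.3 normalized CPM, by 0.51 (adjusted p = 0.043), higher in 6 of 6 livers. The MYC ubiquitin ligase gene Fbxw7 rose by 0.53 (adjusted p = 0.037, 5 of 6). Of 32 MYC targets 3 fell, Eif5a by 0.65 (adjusted p = 0.0088), Eif4e by 0.50 (adjusted p = 0.025) and Odc1 by 0.64 (adjusted p = 0.042), each in 6 of 6. Phb rose by 0.47 (adjusted p = 0.019), Bax rose by 0.54 (adjusted p = 0.011) and Perp fell by 0.54 (adjusted p = 0.0093, 5 of 6). Of 19 GADD45 partners and 16 immediate early genes 0 were called in edgeR, with 6 and 4 at an unadjusted p below 0.05, and DESeq2 called 0 and 1.

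With lane in the fit Mlxipl, Fbxw7, Eif5a and Perp were still called at 8 and 12 h, the highest adjusted p being 0.048 for Fbxw7. Without 0 h replicate 2, 0 of the 8 named genes were called, and without 0 h replicate 1 only 2.

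Between the late livers and those of 8 and 12 h, 3 listed genes rose and 1 fell, 3.74% of them, beside 2.7% of all genes. Mlxipl fell by 0.47 (adjusted p = 0.045, lower in 5 of 6 livers) to 666 ± 139.3 normalized CPM. The nucleolar MYC targets Npm1 and Ncl rose by 0.53 (adjusted p = 0.021) and 0.38 (adjusted p = 0.044), and Ier2 rose by 0.45 (adjusted p = 0.033, above all in 2 of 6). The median of the 16 immediate early genes was 0.44 beside 0.00 over all genes. Of 13 MYC cofactors, 19 GADD45 partners and 19 p53 targets 0 were called in edgeR, with 0, 6 and 5 at an unadjusted p below 0.05, and 0 in DESeq2. With lane in the fit 0 listed genes were called, and 0 of the 4 genes were called without 8 h replicate 1, 8 h replicate 2, 12 h replicate 3, 18 h replicate 2 or 22 h replicate 2.

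In the stomach the called MYC targets fell but for 1, and the called immediate early genes rose. Of the listed genes tested, 12 rose and 15 fell (23.1% called), beside 1011 and 1481 of all genes (15.3% called). The balance turned with 0 and 2 h as control, to 20 higher and 13 lower. Among 32 MYC targets 1 rose and 11 fell, with a median of -0.21 beside -0.00 over all genes. The ribosome assembly factor Bop1 fell from 44.5 ± 4.30 to 27.8 ± 1.84 normalized CPM, by 0.68 (adjusted p = 0.0056), lower in 6 of 6 stomachs. Eif4e fell by 0.54 (adjusted p = 0.019, 6 of 6), Odc1 by 0.75 (adjusted p = 0.020, 5 of 6) and Nop16 by 0.77 (adjusted p = 0.022, 3 of 6), while Ppan rose by 1.13 (adjusted p = 0.019, 5 of 6).

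The cell cycle partners of GADD45 were among the genes that fell in the stomach. Pcna, the replication clamp, fell from 26.4 ± 4.79 to 11.7 ± 2.89 normalized CPM, by 1.17 (adjusted p = 0.0044), and Cdk1 fell by 1.18 (adjusted p = 0.015) and Ccnb1 by 1.83 (adjusted p = 0.027), each in 6 of 6 stomachs. The kinases Mapk11 and Mapk12 rose by 1.45 (adjusted p = 0.040) and 1.11 (adjusted p = 0.046). The median of the 22 GADD45 partners was -0.04. Cdk1 and Ccnb1 are also among the 12 proliferation markers whose sum was lower in the late stomachs.

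Immediate early and p53 target genes that edgeR called in the late stomach rose, while DESeq2 called 7 immediate early genes higher and 1 lower, and 18 h alone 2 p53 targets higher and 1 lower. Of 22 immediate early genes 6 rose, with a median of 0.12, led by the MAP kinase phosphatase gene Dusp1, from 15.4 ± 3.75 to 41.4 ± 12.9 normalized CPM (1.41, adjusted p = 0.014, 6 of 6). Nr4a1 rose by 1.14 (adjusted p = 0.014), Klf2 by 0.93 (adjusted p = 0.018) and Npas4 by 1.99 (adjusted p = 0.023), each in 6 of 6. Of 20 p53 targets Trp53inp1 rose by 1.17 (adjusted p = 0.0088) and Sesn1 by 1.18 (adjusted p = 0.0095), with a median of 0.20. In the MAX network, median 0.22, Mnt rose by 0.54 (adjusted p = 0.049) and Mlx fell by 0.72 (adjusted p = 0.0092). Of 13 MYC cofactors 0 were called in edgeR, with 2 at an unadjusted p below 0.05, and 0 in DESeq2.

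Bop1 and Pcna kept their call without any 1 stomach library. Without 0 h replicate 3, only 3 of the 18 named genes were called, and the called MYC targets numbered 2 and the immediate early genes 0. At 22 h alone and with lane in the fit 0 listed genes were called.

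In brown fat most genes called in the late fast fell. Of the listed genes tested, 2 rose and 17 fell (17.1% called), beside 1149 and 1888 of all genes (20.9% called). At 22 h alone 17 were called higher and 22 lower, and at 18 h alone 0 and 1. Mlxipl fell from 544 ± 200.2 to 151.1 ± 36.2 normalized CPM, by 1.93 (adjusted p = 0.00030), lower in 5 of 5 samples. The MAX dimer partner Mga fell by 1.19 (adjusted p = 0.0078, 5 of 5) and Mlxip by 0.76 (adjusted p = 0.033, 2 of 5). The MAX network had a median of -0.36 over 9 genes, beside -0.07 over all genes.

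Of 13 MYC cofactors tested in brown fat 5 fell, with a median of -0.40 over the list. At 18 h alone 0 were called, and at 22 h alone 2 were higher and 6 lower. The chromatin remodeller gene Ep400 fell by 1.39 (adjusted p = 0.0058, 5 of 5), the ubiquitin ligase gene Huwe1 by 1.35 (adjusted p = 0.0059, 3 of 5), the deubiquitinase gene Usp7 by 0.68 (adjusted p = 0.015, 5 of 5) and the scaffold gene Trrap by 1.03 (adjusted p = 0.018, 3 of 5). Among 20 GADD45 partners 3 fell, with a median of -0.16, while DESeq2 called 1 higher and 3 lower, and 22 h alone 4 higher and 6 lower. In the late fast Tet3 fell by 1.58 (adjusted p = 0.0038, 2 of 5), Mapk14 by 0.65 (adjusted p = 0.033, 4 of 5) and Tet1 by 2.11 (adjusted p = 0.037, 2 of 5).

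MYC targets of brown fat showed 1 gene up and 2 down of 32, with a median of 0.13, while DESeq2 called 4 higher and 2 lower. The polyamine enzyme gene Srm rose by 0.50 (adjusted p = 0.044, 5 of 5), and Ddx21 fell by 0.58 (adjusted p = 0.025, 4 of 5) and Ccnd2 by 0.95 (adjusted p = 0.032, 4 of 5). Of 19 p53 targets Fas rose by 0.89 (adjusted p = 0.018, 4 of 5), and Plk2 fell by 1.00 (adjusted p = 0.014) and Trp53 by 0.87 (adjusted p = 0.020), each in 5 of 5, with a median of 0.01. Of 20 immediate early genes, median -0.22, Fosl2 fell by 1.72 (adjusted p = 0.0027, 5 of 5) and Jun by 1.12 (adjusted p = 0.027, 3 of 5).

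Mlxipl, Mga, Huwe1, Tet3 and Fosl2 kept their call without any 1 brown fat library, while without 0 h replicate 2 only 5 of the 18 named genes did. At 22 h alone 12 MYC targets were called, 10 of them higher. The skeletal muscle markers, with Acta1, Myh4 or Pvalb the most abundant, summed to 97.6, 461 and 3304 in the 0 h samples and to 327 to 2871 in the late ones, and their part was not tested.

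In the forebrain samples the called MYC targets rose, 9 of 32 tested, in late samples that also held more red blood cell and pancreatic acinar markers. Of the listed genes tested, 14 rose and 7 fell (17.9% called), beside 1185 and 698 of all genes (11.2% called). A replicate block gave 15 higher and 15 lower, and no filter on low counts 15 and 13. Of the MYC targets 0 fell in edgeR, DESeq2 called 12 higher and 1 lower, and the median was 0.24 beside -0.09 over all genes. The acinar markers summed to 4.01 to 10.4 at 0 h and to 17.3 to 88.7 late, and the part of either cell type was not tested. The nucleotide kinase gene Nme1 rose from 61.1 ± 13.2 to 137.03 ± 28.1 normalized CPM, by 1.16 (adjusted p = 0.0088), and Phb by 1.17 (adjusted p = 0.0088), each higher in 5 of 5 samples. Odc1 rose by 0.95 (adjusted p = 0.019, 5 of 5) and Ldha by 0.67 (adjusted p = 0.027, 4 of 5).

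Cofactors of MYC fell in the forebrain samples, 4 of 13, and the median was 0.00. Huwe1 fell by 0.67 (adjusted p = 0.015), Trrap by 0.95 (adjusted p = 0.016), Usp28 by 1.13 (adjusted p = 0.028) and Ep400 by 0.54 (adjusted p = 0.030), each in 5 of 5. Of 22 GADD45 partners, median -0.17, Gadd45gip1 rose by 0.99 (adjusted p = 0.035) and Tet2 fell by 1.30 (adjusted p = 0.030).

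The p53 targets called in BRN rose: Phlda3 by 1.03 (adjusted p = 0.012), Perp by 1.48 (adjusted p = 0.022) and Bax by 0.79 (adjusted p = 0.049), 3 of 19 with a median of -0.02. Of 23 immediate early genes, median -0.32, Nr4a2 fell by 1.52 (adjusted p = 0.028) and Jun by 0.58 (adjusted p = 0.046). Of the 10 genes of the MAX network, median -0.44, 0 were called in edgeR, with 4 at an unadjusted p below 0.05, and 0 in DESeq2. With library series in the fit, with every library kept, or without 0 h replicate 1, 0 genes of these lists were called.

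In the other organs edgeR called few genes of any kind in the late fast. In OB 0 of the listed genes were called in edgeR, beside 1.95% of all genes. There 29 listed genes (25.4%) had an unadjusted p below 0.05, beside 22.8% of all genes, and DESeq2 called 4 (3.51%), beside 4.84%. At 18 h alone 6 listed genes were called higher and 6 lower in OB, beside 2012 of all genes, and without the low-count filter 5 and 6, beside 1580. In CBL 0 of the listed genes were called in edgeR, beside 0.344% of all genes, with 14 (12.4%) at an unadjusted p below 0.05, beside 15.04%, and 1 (0.885%) in DESeq2, beside 2.18%. In BST 0 listed genes were called in edgeR, beside 0.0596%, with 10 (8.70%) at an unadjusted p below 0.05, beside 9.86%, and 0 in DESeq2, beside 0.131%.

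The white fats had no called gene of these lists in edgeR either. In pgWAT 0 listed genes were called, beside 0.00609% of all genes, with 39 (33.3%) at an unadjusted p below 0.05, beside 21.7%, and 16 (13.7%) in DESeq2, beside 6.92%, which was 1136 genes. In psWAT 0 listed genes were called in edgeR, beside 0% of all genes, with 8 (6.78%) at an unadjusted p below 0.05, beside 5.18%, and 1 (0.847%) in DESeq2, beside 0.0718%. Over all psWAT genes 866 had an unadjusted p below 0.05 and DESeq2 called 12.

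Genes most like each member over the organ means were chosen by Pearson's r of log2 levels over the 9 organs, with organs sharing mice and each mean sharing its libraries. Myc was most like Tln1 (r = 0.977), Neurl3 (0.976) and Tmc6 (0.971). Mycn was most like Dcakd (0.983), Zcchc14 (0.946) and Tiam2 (0.946), and Mycl like Zeb2 (0.962), Gm4204 (0.941) and Nudt9 (0.934). Gadd45a was most like Uso1 (0.948), Metap1 (0.940) and Pum3 (0.930). Gadd45b was most like Actr3 (0.973), Cdc42se1 (0.966) and Fbxl14 (0.965), and Gadd45g like Gstk1 (0.944), Nectin2 (0.941) and Pmm2 (0.940).

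Over the 18 liver libraries other genes came nearest. Myc was most like 1700018L02Rik (r = 0.920), the forkhead gene Foxq1 (0.891) and 2810013P06Rik (0.886). Gadd45g was most like Sh3bgrl3 (0.857), the complement gene C2 (0.852) and Epb41l4aos (0.846). Gadd45b was most like Wdfy4 (0.801), the BMP target Id1 (0.799) and Acadvl (0.785), and Gadd45a like Proser1 (0.858), Cdh1 (0.838) and Fam160a2 (0.791). For Mycl they were Usp34 (0.849), Hddc3 (0.819) and Gm19412 (0.788), and for Mycn Tedc2 (0.808), Aifm2 (0.805) and Chchd7 (0.805).

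The 6 genes lie on 6 chromosomes of build GRCm38, in Gencode M21 models. Myc (ENSMUSG00000022346) is at chr15:61985391-61990374 on the plus strand, Mycn (ENSMUSG00000037169) at chr12:12936093-12941914 on the minus strand and Mycl (ENSMUSG00000028654) at chr4:122995652-123002485 on the plus strand. Gadd45a (ENSMUSG00000036390) is at chr6:67035096-67037457 on the minus strand, Gadd45b (ENSMUSG00000015312) at chr10:80930073-80932204 and Gadd45g (ENSMUSG00000021453) at chr13:51846678-51848468, both on the plus strand. Gadd45a alone shares its span with another annotated gene, E230016M11Rik on the opposite strand, which had 0 to 87 counts per library with a median of 22, against a median of 72 for Gadd45a.

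The promoter windows of RefSeq on build GRCm38.p6, 300 bases each, hold 5 of the 6 members, all but Myc. The E-box CACGTG, the same on both strands, was found once in the windows of Gadd45b and Gadd45g and not in those of Mycn, Mycl and Gadd45a, while 2349 of 32851 promoters (7.15%) hold it. TATAAA or its reverse complement TTTATA was found once each in Mycl, Gadd45b and Gadd45g, beside 4473 promoters (13.6%). The bases up to the annotated gene start of the 3 GADD45 genes are shown because these genes share partners but differed in level, with the E-box in capitals, 5′ to 3′. They are chr6:67037458-67037657 on the minus strand for Gadd45a, chr10:80929841-80930072 on the plus strand for Gadd45b and chr13:51846425-51846677 on the plus strand for Gadd45g. A match describes the letters of the window and nothing more.
Gadd45a: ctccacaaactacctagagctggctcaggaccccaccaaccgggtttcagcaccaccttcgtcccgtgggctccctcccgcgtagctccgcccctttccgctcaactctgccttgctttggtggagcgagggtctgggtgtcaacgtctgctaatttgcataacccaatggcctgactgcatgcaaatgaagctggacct
Gadd45b: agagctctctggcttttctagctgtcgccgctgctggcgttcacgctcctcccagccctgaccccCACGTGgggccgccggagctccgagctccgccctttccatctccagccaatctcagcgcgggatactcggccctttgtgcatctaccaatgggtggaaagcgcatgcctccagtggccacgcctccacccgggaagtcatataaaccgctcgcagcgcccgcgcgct
Gadd45g: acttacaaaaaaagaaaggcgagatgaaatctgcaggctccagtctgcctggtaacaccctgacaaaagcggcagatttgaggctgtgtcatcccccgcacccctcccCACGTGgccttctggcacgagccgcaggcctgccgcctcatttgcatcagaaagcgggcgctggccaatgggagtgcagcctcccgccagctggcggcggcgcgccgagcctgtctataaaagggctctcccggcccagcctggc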

How the data were processed

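Polyadenylated RNA of 162 libraries was sequenced from a TruSeq stranded library. The submitters' processing notes give mapping with TopHat2 2.1.1 to GRCm38.p5 and counting with HTSeq 0.9.1 on Gencode M16; their strand setting of counting is not given in the sources used here. The values are the raw counts the authors deposited, 53686 genes; gene models here are Gencode M21. The 6 members and all gene lists were chosen with earlier results of these data known.

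Libraries more than 2 SD below their organ's mean log10 total count were left out (5 of 162); totals of the retained ones were 3045845 to 27801717. Per organ, genes with a CPM worth 10 counts at the median library size in at least 3 libraries were fitted over the 6 times with edgeR 4.0.16 (TMM, robust quasi-likelihood) in R 4.3.3 with limma 3.58.1, and adjusted by Benjamini-Hochberg. Late fast is the mean of 18 and 22 h. SE is that of the fitted log2 fold change. Named genes are up to 4 per list, direction and comparison with the smallest adjusted p. Of the 54 genes chosen this way, 27 overlap another annotated gene, 19 of them on the same strand. Levels per kilobase use the union of exons. Python 3.11.15 with pandas 2.3.3 and numpy 2.4.6 wrote the tables, and matplotlib 3.10.9 drew the plots. The fitting steps were checked on simulated data.

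Alternatives tried were DESeq2 1.42.0, relative log expression factors, no filter, a fold minimum, a block for replicate number, 0 and 2 h as control, each late time alone, every library, sequencing lane or library series as covariate, leaving out psWAT 12 h replicate 3 or each library in turn and, added after seeing the data, leaving out 2 BRN libraries, 2 psWAT libraries or 2 pgWAT libraries and scaling over all organs.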

Additional observations from a re-analysis of the deposited data

Results flagged for a closer look

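Some pathway genes lay on opposite sides of 0 h in 2 organs, with every late library of one organ above and every late library of the other below its 0 h libraries. Of all genes, 11.1% were above and 11.7% below in BRN, 6.04% and 6.88% in STM, and 7.61% and 6.69% in LIV. The shares were 4.72% and 6.2% in iBAT, 3.64% and 2.68% in OB, and 1.53% and 1.69% in BST. How many of all genes lay on opposite sides in 2 organs was not counted, so these genes are listed only. The difference between organs was not tested. Of the organs given for each gene, Tet2, Perp, Jun and Eif5a were called in BRN only, Bop1 and Pcna in STM only, Usp7 in iBAT only and Ddx21 in neither. For the TET enzyme gene Tet2 the log2 fold change of the late fast was -1.30 in BRN and 0.75 in STM. For Perp, a p53 target, it was 1.48 in BRN and -0.30 in LIV. For Jun it was -0.58 in BRN and 0.48 in STM. For the ribosome assembly gene Bop1 it was 0.42 in BRN and -0.68 in STM. For Pcna it was -1.17 in STM and 0.59 in iBAT. For Eif5a it was 0.55 in BRN and -0.34 in LIV. For Usp7 it was -0.19 in OB, -0.54 in BRN and -0.68 in iBAT, against 0.11 in LIV. For Ddx21 it was -0.97 in BRN and 0.14 in BST.

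Some libraries left out for a low total count held members above or below every 0 h library of their organ, in CPM without scaling. In iBAT 22 h replicate 1, where Gadd45a at 7.41 CPM lay among the 0 h samples, Myc was at 8.52 CPM, Mycl at 12.2 and Gadd45g at 101.1, against 0 h maxima of 5.15, 1.32 and 37.6, and Mycn had 0 counts. In psWAT 22 h replicate 2, Gadd45b was at 95.4 CPM, against 91.8, and Mycn had 0 counts. In STM 12 h replicate 3, Gadd45g was at 114.2 CPM, against 30.4, while Myc at 10.9, Mycl at 0 and Gadd45a at 1.31 lay below the 0 h minima of 14.004, 3.22 and 6.87. In BRN 8 h replicate 3 and 18 h replicate 1 every member had 0 counts or 1.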

How the results depend on the processing

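None of the called results for named genes was reversed under the alternatives run for it. DESeq2 kept the call of all 74 named results and called more genes in most organs: 810 in OB, 3015 in BRN, 349 in CBL, 22 in BST, 873 for late against 8 and 12 h in LIV, 1136 in pgWAT and 12 in psWAT. In BST 9 of its 22 were higher, against 2 of 10 in edgeR, and in pgWAT 570 of 1136, against 0 of 1. A log2 fold change beyond 1 left 29 genes in OB, 861 in BRN, 11 in CBL, 1 in BST, 1155 in STM, 1395 in iBAT, and in LIV 2.3e+02 late, 1.1e+02 at 8 and 12 h (counts written this way are rounded to 2 digits) and 69 between them. Without the filter 1580 genes were called in OB, 694 in CBL, 1.6e+02 in BST, 21 in pgWAT and 1402 for late against 8 and 12 h in LIV. With a replicate block 644 were called in OB, 110 in CBL and 4 in BST; replicate numbers are shared labels, and within organs the mean correlation of libraries of the same number ran from -0.08 to 0.16. With 0 and 2 h as control 815 were called in OB, 1244 in BRN, 396 in CBL, 5231 in iBAT and 2522 at 8 and 12 h in LIV. At 18 h alone 2012 were called in OB, 404 in BRN, 1 in CBL, 0 in BST, 40 in iBAT and 0 in pgWAT, and at 22 h alone 19 in OB, 1152 in BRN, 633 in CBL, 0 in BST, 39 in STM, 582 in LIV and 5960 in iBAT. With lane in the fit 0 were called in OB and STM and in LIV 21 late, 695 at 8 and 12 h and 0 between them. In BRN 0 were called with every library kept and 0 with library series in the fit. Leaving out 1 library at a time gave 3 (without 0 h replicate 1) to 1251 (0 h replicate 3) in OB, 0 (0 h replicate 1) to 5597 (18 h replicate 3) in BRN, 5 (0 h replicate 3) to 248 (18 h replicate 1) in CBL, 0 (18 h replicate 2) to 72 (0 h replicate 3) in BST and 490 (0 h replicate 3) to 3407 (0 h replicate 2) in STM. It gave 585 (0 h replicate 2) to 1608 (18 h replicate 1) in LIV late, 1.9e+02 (0 h replicate 2) to 1529 (8 h replicate 3) at 8 and 12 h, 16 (8 h replicate 2) to 1385 (18 h replicate 1) between them, 647 (0 h replicate 2) to 4630 (22 h replicate 3) in iBAT, 1 to 225 (22 h replicate 2) in pgWAT and 0 to 0 in psWAT. Members' differences moved beyond their spread in 18 of 584 such values. The causes were not tested. Depth limits Mycn outside the brain and in BST, Myc in CBL and Gadd45b in LIV, whose means are 2.67 normalized CPM or lower. Myc in BST, at 2.68, is close to these, and 3 mice per time limit every comparison.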

Other observations

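Posterior-subcutaneous fat varied widely in its cell type markers. Over its libraries the 6 skeletal muscle markers summed to 15.5 to 32555 normalized CPM, with a median of 1158. The 5 pancreatic acinar markers summed to 0 to 360, with a median of 0.235. The 6 lymphocyte markers summed to 909, 1457 and 2483 normalized CPM at 0 h, and to 186, 1664 and 816 at 8 h. The 6 adipocyte markers in the same 0 h samples summed to 22907, 16877 and 1205. Gadd45b in these 0 h samples was 59.01, 75.1 and 81.8, and Myc 31.8, 41.2 and 55.6. The 2 libraries lowest in lymphocyte markers, 8 h replicate 1 and 12 h replicate 3, held 30.1 and 51.2 normalized CPM of Gadd45b. The part of the cell mixture in these levels was not tested.

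In the forebrain samples the 5 pancreatic acinar markers summed to 4.01, 10.4 and 4.29 at 0 h and to 17.3 to 88.7 in the late fast, with Ctrb1 or Pnlip the most abundant. In the stomach the same markers summed to 93.0, 2.85 and 270.3 at 0 h.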
